A study of Arabidopsis thaliana with 6 samples.

Results

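The comparison set rosettes grown in low light at high CO2 against rosettes grown in low light at ambient CO2, across all genes on the Affymetrix ATH1 array, an oligonucleotide array for Arabidopsis thaliana. Its members are 2 of the 6 arrays of the study, chosen by their titles, and the atmosphere entries of both arrays match those titles. The study grew the wild-type accession Col-0 at 3 light levels (low, medium and high) and 2 CO2 levels (ambient and high), with 1 array for each combination, and its title names the genetic basis of stomatal number at raised CO2 as the question. All 6 groups shared genotype, tissue and growing conditions: rosette centres, including leaves up to leaf 11, of plants at developmental stage 3.20 to 3.50, kept on compost at 21 °C under days of 10 h and nights of 14 h and treated with the insecticide Intercept. How bright each light level was, how much CO2 was supplied and how many plants an array stands for is not stated in the labels used here. The high-light array titled high CO2 carries an atmosphere entry of Normal, so the values in high light that are set beside the low-light values rest on a library labelled high CO2 by its title alone.

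In leaves, CO2 is fixed by Rubisco in the Calvin-Benson cycle, and oxygen competes for the same enzyme, which starts photorespiration. More CO2 favours fixation over photorespiration, and many plants form fewer stomata, the pores through which CO2 enters, when they grow in it. In low light the supply of ATP and NADPH from the light reactions limits fixation.

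Each value is a MAS5 signal, the authors' linear measure of brightness for a probe set (the group of probes for a transcript). Signals under 20 were set to 20, and a difference is the log2 signal at high CO2 minus that at ambient CO2, so a difference of 1 is a 2-fold higher signal. With 1 array per group the low-light difference has no replicate check and no p-value, and "2-fold" below is a threshold of size only. Each array had a trimmed mean signal of 100.01, and the medians over the 22746 probe sets other than controls were 41.7 for the low-light ambient array and 40.7 for the low-light high-CO2 array. The median difference over the 15784 probe sets with a signal of 20 or more on either low-light array was -0.01. Among the 14348 with both signals at 20 or more, the standard deviation of the differences across probe sets was 0.32.

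Of the 22746 probe sets, 69 (0.303%) were at least 2-fold higher and 115 (0.506%) at least 2-fold lower at high CO2 in low light. As shares of the 15784 measured probe sets these were 0.437% and 0.729%. Either signal lay under 20 for 25 of the higher and 24 of the lower probe sets, for which the size of the difference is a lower bound. The 2-fold differences were not confined to dim probe sets: they made up 1.07% of those with a mean signal of 20 to 60, 0.853% from 60 to 200 and 0.902% above 200, counting only probe sets with both signals at 20 or more. Just under the threshold, 112 probe sets were higher and 151 lower by a size of 0.8 to 1. The gene table named exactly 1 gene for 28 of the higher and 46 of the lower probe sets, and a symbol other than a locus number for 2 and 9 of these.

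**Figure D1:**
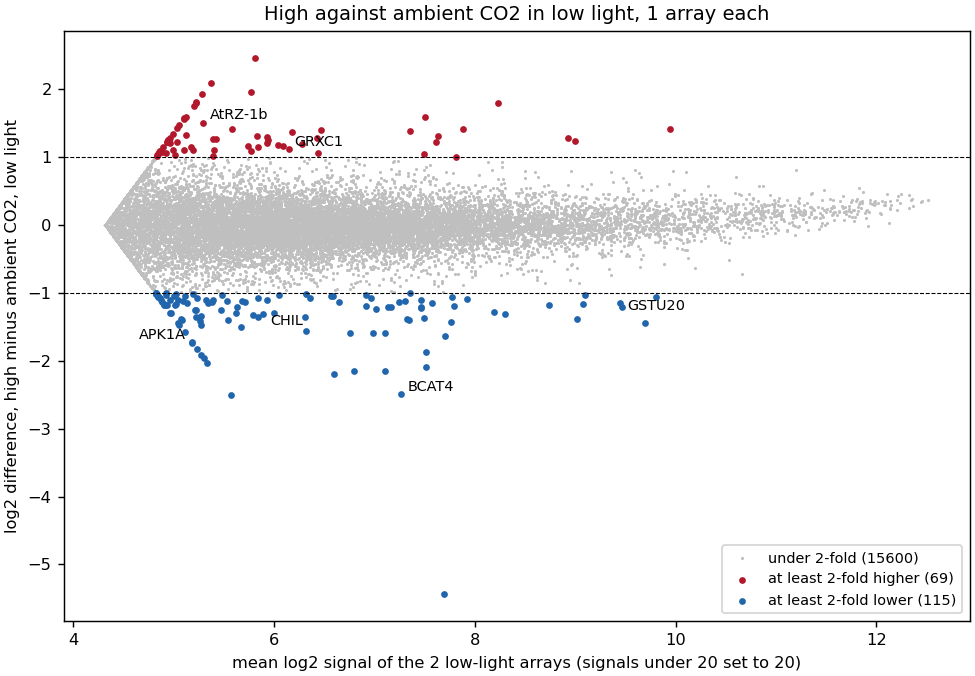
Log2 difference between high and ambient CO2 in low light (vertical axis) against the mean log2 signal of the pair (horizontal axis), 1 point per probe set. The 69 red points are at least 2-fold higher and the 115 blue points at least 2-fold lower, and the straight edges at the left are set by the floor of 20.

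Glucosinolate genes were the list with the most 2-fold lower members. Glucosinolates are sulfur-rich defence compounds of the cabbage family, built from amino acids such as methionine and broken down by myrosinases. Of 58 list entries, 8 genes were matched to a probe set with 1 gene, so the counts cover only part of the pathway. Of these 8, 7 were measured, 3 of them were at least 2-fold lower at high CO2, and all 7 differences were below 0, with a median of -0.61. Over all 15784 measured probe sets 0.729% were at least 2-fold lower, 8033 differences were below 0, and the median was -0.01. BCAT4, the aminotransferase of the entry step of methionine chain elongation, had a signal of 364.8 at ambient and 64.7 at high CO2 in low light. In medium light it had 158.3 and 174.7, and in high light 287.0 and 253.6. The low-light high-CO2 array was thus the lowest and the low-light ambient array the highest of the 6, and the difference in low light was -2.50, a 5.64-fold lower signal.

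GSTU20, a glutathione S-transferase linked to the synthesis of methionine-derived glucosinolates, had 1036.6 at ambient and 467.5 at high CO2 in low light. Its other 4 signals lay between 1065.7 and 1219.4, so the low-light high-CO2 array stood apart from the other 5, and the low-light difference was -1.15. PYK10, a beta-glucosidase of the endoplasmic reticulum that acts as a myrosinase and is best known from roots, had 63.7 and 31.3 in low light, a difference of -1.03. With quantile normalization or equal medians PYK10 lay just inside 2-fold, at -0.99 under both. UGT74B1, which adds the glucose of the glucosinolate core, had 231.7 and 151.3, a difference of -0.61, while it was 0.17 in medium and 0.31 in high light. The remaining measured genes were closer to 0: AOP1, a dioxygenase related to those that modify glucosinolate side chains, at -0.25, and the glucosinolate transporters GTR1 at -0.06 and GTR2 at -0.11. AOP3 had a signal under 1 on both arrays and was not measured. The 7 differences were also all below 0 under both other scalings.

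Flavonoid genes lay on the same side. Flavonoids are phenolic pigments and sunscreens made from chalcones, and their sugars are added by glycosyltransferases. All 4 measured genes of the list had differences below 0 (median -0.31), and none reached 2-fold. Over all 15784 measured probe sets 8033 differences were below 0, 0.437% were at least 2-fold higher and 0.729% lower. UGT78D1, a flavonol rhamnosyltransferase, had 108.4 and 62.2, a difference of -0.80. DFR, which commits the pathway to anthocyanins, differed by -0.36 in low light and by -1.53 in high light, where its ambient signal of 196.6 was the highest of the 6. The anthocyanin glycosyltransferase UF3GT differed by -0.26 and the flavonoid glucosyltransferase UGT78D2 by -0.25. CHIL, a chalcone isomerase-like protein that promotes flavonoid production and that the list did not hold, had 93.1 at ambient and 37.6 at high CO2 in low light. Its signals in medium and high light ran from 105.2 to 158.2, above both low-light arrays, and its low-light difference was -1.31.

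**Figure D2:**
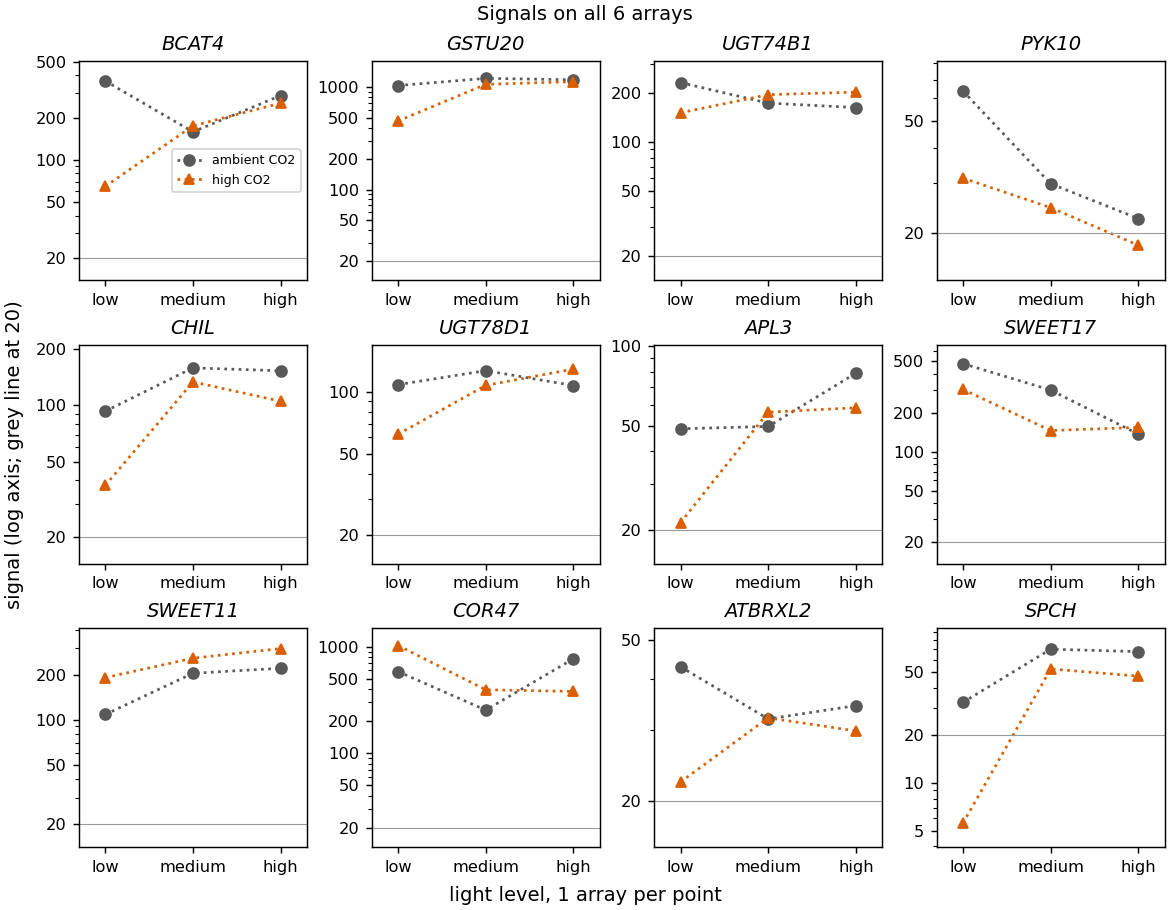
Signals of 12 named genes on all 6 arrays (log axis), with light level on the horizontal axis, circles for ambient and triangles for high CO2, and a grey line at 20. BCAT4, GSTU20, UGT74B1, CHIL, UGT78D1, APL3, ATBRXL2 and SPCH have their lowest signal on the low-light high-CO2 array.

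Genes of starch and sugar handling differed in both directions. APL3, a large subunit of ADP-glucose pyrophosphorylase, which makes the sugar donor for starch, had 48.6 at ambient and 21.4 at high CO2 in low light, a difference of -1.18. It had 49.6 and 56.2 in medium light and 79.0 and 58.4 in high light, so the low-light high-CO2 array was the lowest of the 6. The starch branching enzyme SBE2.2 had 446.1 and 333.5, a difference of -0.42, and the other large subunit APL4 stayed near the floor, at 20.3 and 21.4. All 3 measured genes of starch breakdown were slightly higher: the alpha-amylase AMY1 by 0.42, the phosphoglucan water dikinase PWD by 0.38 and the disproportionating enzyme DPE1 by 0.13. Over all 15784 measured probe sets 7676 differences were above 0. QQS, a small protein known to lower starch content in Arabidopsis, had 37.7 and 69.4, a difference of 0.88, and differed by -0.77 in medium light.

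Among sugar transporters, SWEET11, a sucrose exporter of phloem parenchyma, had 108.3 at ambient and 191.1 at high CO2 in low light. Its signal was higher at high CO2 at each light level, by 0.82 in low, 0.34 in medium and 0.44 in high light, and the low-light ambient array was the lowest of the 6. SWEET16 and SWEET17, sugar carriers of the vacuole membrane, both differed by -0.66, from 110.9 to 70.3 and from 478.5 to 302.5. They were also lower in medium light, by -0.71 and -1.04, but not in high light, at 0.23 and 0.17. The other vacuolar sugar importers differed by less, TMT2 by 0.35 and TMT1 by -0.19. None of the 11 measured SWEET genes reached 2-fold, beside 0.437% higher and 0.729% lower over all measured probe sets.

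The stomatal list, which bears on the study's question, had 37 entries, of which 7 genes were matched to a probe set with 1 gene. Of these, 6 were measured and none reached 2-fold with the floor of 20, beside 0.437% higher and 0.729% lower over all measured probe sets. SPCH (SPEECHLESS), which drives entry into the stomatal lineage, had 32.4 at ambient and 5.6 at high CO2 in low light. Since the lower signal is under the floor, this was at least 1.62-fold lower. In medium light SPCH had 70.1 and 52.6 and in high light 67.7 and 47.4, so that the signal was lower at high CO2 at each light level and lowest of the 6 on the low-light high-CO2 array. ATBRXL2, a BREVIS RADIX-like protein that takes part in stomatal lineage polarity, had 42.9 and 22.3 in low light, a difference of -0.94. Its differences were 0.01 in medium and -0.21 in high light, and it was matched to the list through its long name after its values were seen.

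The other measured genes of the stomatal list differed less in low light. MUTE, which ends the divisions of the stem-like cells, was under 20 on all 6 arrays, so its difference was not measured. FMA (FAMA), which controls the last division and guard cell identity, had 56.9 and 59.1, and STOMAGEN, a peptide that raises stomatal number, had 242.4 and 236.6. AGL16, a MADS-box factor involved in satellite stomata, had 102.7 and 102.9, and SOL1, which acts at cell fate transitions of the lineage, had 51.2 and 43.0. No gene of the list of carbonic anhydrases and CO2 signalling could be matched to a probe set with 1 gene.

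Of the other genes with a symbol, 2 were at least 2-fold higher. AtRZ-1b, a glycine-rich RNA-binding protein with a zinc finger, had 23.3 at ambient and 66.0 at high CO2 in low light, a 2.83-fold higher signal. The glutaredoxin GRXC1 had 45.5 and 102.3, a difference of 1.17. In both cases the ambient low-light array was the lowest of the 6, and the difference in medium light was of the other sign, at -0.77 and -0.41. CCS, the copper chaperone of superoxide dismutase, lay just under 2-fold, with 79.8 and 159.0 and a difference of 0.99, and it differed by -1.07 in medium light.

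Lower by 2-fold or more were also the protein kinase APK1A (64.1 and 23.2, difference -1.47), TBL36 of the family that acetylates cell wall polymers (75.7 and 34.9, -1.12), HOS3-1 (52.2 and 23.5, -1.15) and GLC (60.5 and 27.3, -1.15). A further GLC probe set was under 20 on both arrays, so the GLC difference rests on 1 probe set. RR16, a type-A response regulator of cytokinin signalling, had 43.1 and 21.6, a difference of -0.997 that just missed the threshold. Between a size of 0.8 and 1 on the lower side lay the glycosyltransferases UGT73B1 (-0.96), UGT85A7 (-0.83) and UGT84A3 (-0.82), the metallothionein MT1C (-0.94), the calmodulin-like CML43 (-0.93), the wax ester synthase WSD1 (-0.90), DI21 (-0.89), TBL38 (-0.87), GSTU26 (-0.85) and the beta-expansin EXPB3 (-0.82). The values of CML43 and WSD1 are bounds, as their high-CO2 signals were under 20. On the higher side lay the MADS-box gene AGL87 (0.81) and the dehydrin COR47 (0.81).

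**Figure D3:**
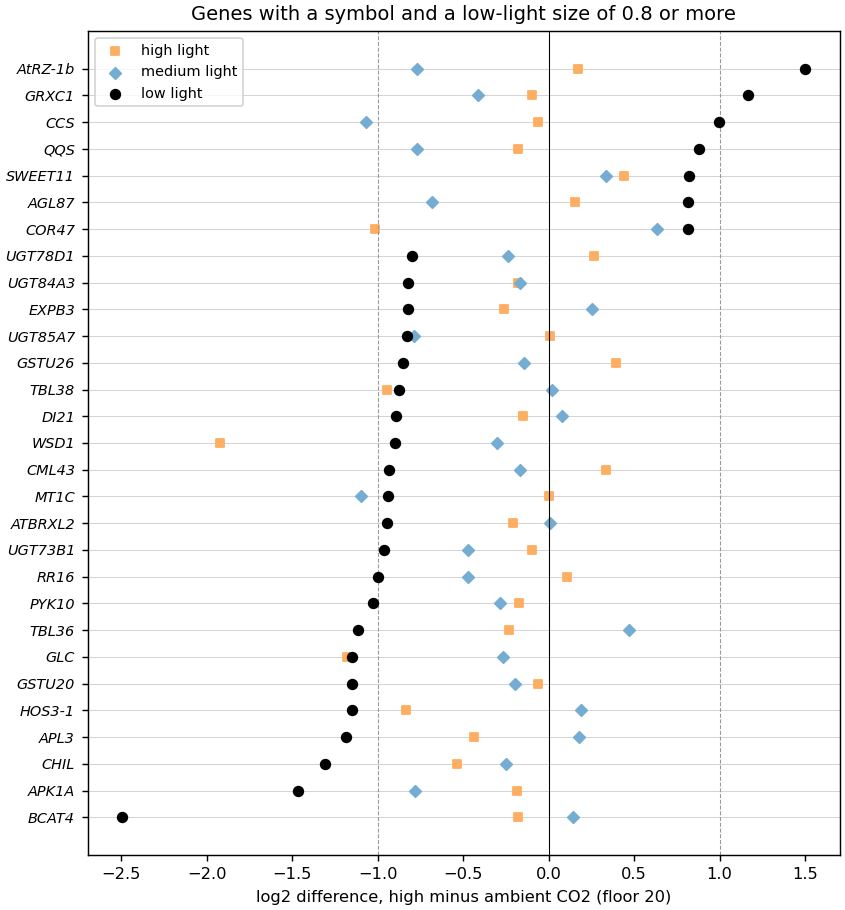
Log2 difference between high and ambient CO2 in low (circles), medium (diamonds) and high light (squares) for the 29 symbol-bearing genes with a low-light size of 0.8 or more. For most genes the diamonds and squares lie nearer to 0 than the circle, while WSD1, COR47, GLC and TBL38 have larger sizes in high light and MT1C and CCS in medium light.

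By gene family, 1 of 8 measured glutathione S-transferases (GSTU20), 1 of 17 TBL genes (TBL36) and 1 of 9 beta-glucosidases (PYK10) were at least 2-fold lower, and none was higher, beside 0.729% lower and 0.437% higher over all measured probe sets. None of 25 UDP-glycosyltransferases, 12 cytochromes P450 and 15 expansins reached 2-fold. Among the 25 glycosyltransferases 7 were lower by 0.5 or more and 2 were higher, and over all measured probe sets 6.32% were lower and 4.65% higher by that size. The median difference was -0.31 for the glutathione S-transferases and -0.29 for the TBL genes.

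Most of the largest single-gene differences belonged to genes for which the gene table gives a locus number and no name. On the higher side AT3G16530 had 104.8 at ambient and 316.8 at high CO2 in low light, a difference of 1.60. It had 95.1 and 93.5 in medium light and 39.8 and 258.4 in high light. AT5G62360 (127.7 and 299.7) and AT5G25440 (38.9 and 95.2) differed by 1.23 and 1.29 in low light, and by 1.22 and 1.33 in medium light. AT5G55450 had 159.1 and 318.3 in low, 239.1 and 710.8 in medium and 619.9 and 1286.7 in high light, and so was about 2-fold or more higher at high CO2 at each light level. Its low-light difference of 1.00 fell just short of 1 with quantile normalization. AT3G59350 had 54.5 and 108.9 in low light and differed by 1.31 in medium but by -1.38 in high light, and AT5G35735 (125.6 and 260.6) by 1.13 and -0.60.

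AT1G13730, AT1G52200, AT2G03430, AT5G57760 and AT3G59630 had differences from 1.02 to 1.31, with high-CO2 signals from 60.0 to 95.3. Where the ambient signal was under 20, AT2G25190 was at least 2.98-fold higher, AT1G07050 at least 2.96-fold (18.4 and 59.3), and AT2G18690 and AT3G20450 at least 2.77-fold and 2.39-fold. AT1G02360 had 19.3 and 53.9. AT3G20450 stayed under 20 on all other 5 arrays.

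On the lower side AT2G33850 had 289.7 and 65.1 in low light, a difference of -2.15, against 458.7 and 441.2 in medium and 956.2 and 523.9 in high light. AT4G29030 had 220.2 and 73.5, a difference of -1.58, and its other 4 signals were between 269.8 and 522.8. In both genes the low-light high-CO2 array was the lowest of the 6. AT3G28220 had the highest signal of these genes after GSTU20, with 809.6 and 360.2, and was lower in medium light by a like amount (-1.17 in low and -0.99 in medium light). AT2G25450 (335.1 and 146.7), AT1G21440 (268.8 and 116.4) and AT3G23570 (214.8 and 92.6) differed by -1.19, -1.21 and -1.21, and each had its lowest signal of the 6 on the low-light high-CO2 array. AT3G15780, AT3G11210 and AT1G70810 differed by -1.41, -1.33 and -1.14.

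Of the genes whose high-CO2 signal fell under the floor, AT4G17470 had 113.9 and 2.3 in low light, at least 5.70-fold lower. It was also lower in medium light (44.8 and 5.1) and in high light (48.8 and 12.0). AT1G47400, AT5G05250, AT3G53980 and AT5G62210 were at least 4.09-fold, 3.76-fold, 3.32-fold and 2.99-fold lower. AT5G62210 had 59.7 and 12.0 in low light but between 193.6 and 363.6 on the other 4 arrays.

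The largest difference of all came from a probe set without a gene name in the tables used here, 245928_s_at. It had 1357.9 at ambient and 31.4 at high CO2 in low light, a difference of -5.43. It was lower at high CO2 in medium light (275.5 and 86.4) and in high light (531.1 and 113.4) as well. The suffix of this probe set marks probes shared between transcripts. Probe set 254232_at, also unnamed, had 206.8 and 45.2, a difference of -2.19, but 0.20 in medium and -0.21 in high light. Unnamed on the higher side were 259272_at (24.0 and 132.1, difference 2.46) and 266070_at (27.7 and 107.5, 1.96), both also higher in medium and high light.

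Photosynthesis genes were among the brightest on the array and differed little. All 175 probe sets with both low-light signals at 2000 or more stayed under 2-fold, but 162 of them were higher at high CO2, with a median of 0.21, and after quantile normalization their median was -0.01. Against that shift, the antenna proteins LHCB4.1 and LHCB4.2 differed by 0.28 and 0.19, the photosystem subunits PSAN, PSBW and PSBY by 0.26, 0.25 and 0.18, and the ATP synthase subunit ATPC1 by 0.26. Rubisco activase RCA differed by 0.29, from 3650.0 to 4459.1, while the Calvin-Benson enzymes PRK and SBPASE differed by -0.01 and 0.01. The photorespiratory hydroxypyruvate reductase HPR had 2140.2 and 2025.6. PORB, a protochlorophyllide reductase of chlorophyll synthesis, differed by 0.32. None of 10 measured genes of that pathway reached 2-fold, beside 0.437% higher and 0.729% lower over all measured probe sets. With quantile normalization the median of the antenna list turned from 0.19 to -0.07 and that of the photosystem list from 0.09 to -0.04. The antenna protein LHCB4.3 differed by -0.22 and the cyclic electron flow protein PGRL1B, with 177.3 and 121.6, by -0.54.

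None of the 69 plastid-encoded genes matched to a probe set reached 2-fold in low light, beside 0.437% higher and 0.729% lower over all measured probe sets. Their differences ran from -0.68 (petG) to 0.61 (psbJ), with a median of 0.09 that became -0.04 with quantile normalization. All 4 genes of the plastid RNA polymerase (rpo) were slightly lower, with a median of -0.18, under all 3 scalings. The ribosomal genes (rpl and rps) had a median of 0.18, and 11 of 15 were above 0. With quantile normalization their median was 0.12, and 9 of 15 were above 0. Over all 15784 measured probe sets 7676 differences were above 0 and 8033 below. The large Rubisco subunit rbcL had 904.5 and 706.2, a difference of -0.36.

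**Figure D4:**
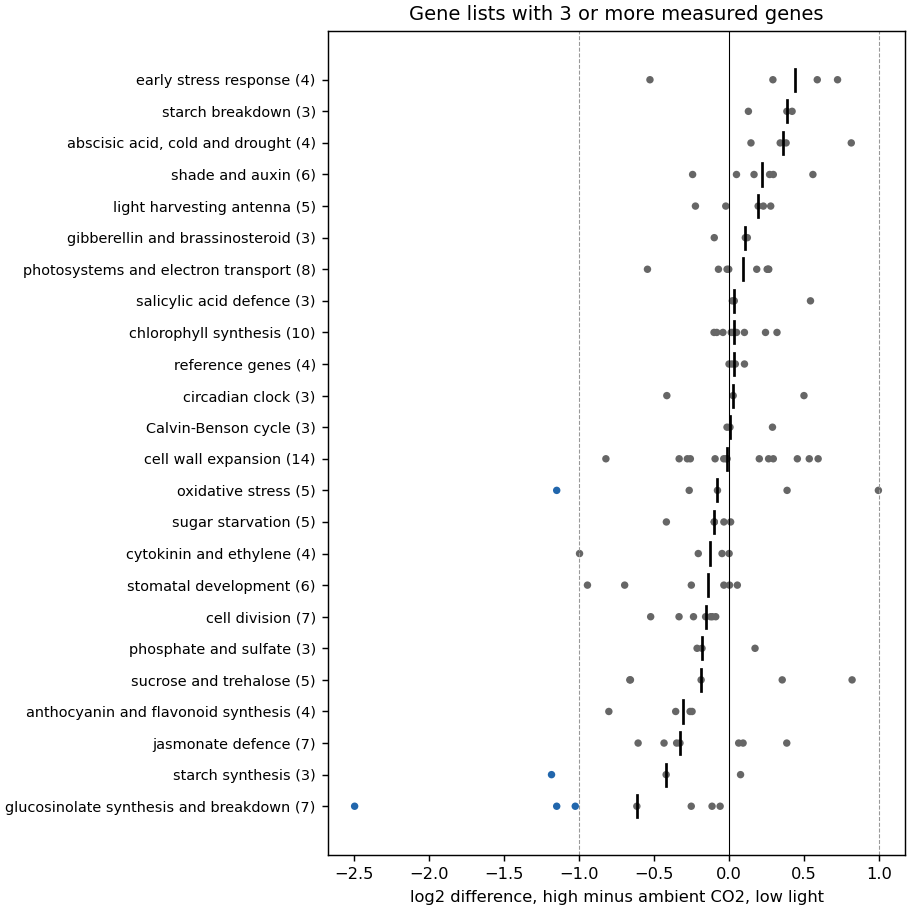
Log2 difference in low light for each measured gene of the lists with 3 or more measured genes, numbers of genes in parentheses, with a black bar at each list's median and dashed lines at 2-fold. Blue points are at least 2-fold lower, and GSTU20 is drawn in 2 lists.

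Over all 31 gene lists, with 1448 entries, 159 genes were matched to a probe set with 1 gene and 133 measured. Of the 133, 0 were at least 2-fold higher and 4 at least 2-fold lower (BCAT4, GSTU20, APL3 and PYK10), beside 0.437% higher and 0.729% lower over all measured probe sets. The nitrate transporter family member NPF6.4 (AT3G21670) had 519.4 and 297.8 in low light, a difference of -0.80, and was lower at high CO2 in medium and high light too, by -1.56 and -1.22. All 4 measured cold and drought genes were higher in low light, beside 7676 of all 15784 measured probe sets. COR47 had 584.8 and 1028.0 (0.81), COR15B 1105.4 and 1438.1 (0.38), COR15A 1050.0 and 1329.4 (0.34) and LTI30 127.2 and 140.7 (0.15). In medium light all 4 were higher too, by 0.63, 1.06, 1.35 and 0.75 in that order. In high light, where the high-CO2 array rests on its title alone, they differed in the other direction, from -0.24 to -1.17. All 7 measured cell division genes had differences below 0, with a median of -0.16, beside 8033 of all 15784 measured probe sets below 0. The mitotic kinase AUR1 was at -0.52, topoisomerase TOPII at -0.33 and BUB3.1 at -0.24. AUR3, PRL, AUR2 and SIM lay closer to 0, at -0.16, -0.12, -0.11 and -0.09.

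None of the measured genes of the salicylic acid (3), jasmonate (7) and early stress (4) lists reached 2-fold in low light. These lists had 59, 50 and 51 entries, of which 4, 11 and 9 genes were matched to a probe set with 1 gene. The counts thus cover only a small part of each list. Over all measured probe sets only 0.437% were higher and 0.729% lower by that size, so lists this short would mostly hold none. The defensin PDF1.2 was under 20 on both low-light arrays and PDF1.2b had 18.0 and 26.1, whereas PDF1.2b had 38.1 and 770.0 in high light. The thionin THI2.2 had 240.1 and 157.7, a difference of -0.61. The zinc finger factor STZ had 60.5 and 90.9 and the calmodulin-like CML38 15.2 and 33.0, a difference of 0.59 for STZ and at least 1.65-fold higher for CML38. Of the same early stress list, WRKY22 had 48.0 and 33.3, a difference of -0.53, and PUB24 differed by 0.29. In high light STZ had 764.3 and 76.6, and CML38 had 227.5 and 16.8. Among wall genes the expansin-like EXLA1 and EXLA2 differed by 0.53 and 0.59, and the clock gene GI by 0.50. WRKY53 differed by 0.54, the shade-pathway gene FHL by 0.56 and the iron-response regulator PYE by -0.57. The 4 reference genes differed by -0.00 to 0.10, with PEX4, a ubiquitin-conjugating enzyme, at 232.5 and 232.4.

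Setting the 2-fold probe sets of low light beside the other light levels, which used other arrays, gave different overlap for the higher and the lower ones. Of the 69 higher probe sets, 31 (44.9%) were also at least 2-fold higher in medium light, where 197 probe sets (0.866% of all) passed, so the overlap was 15.7% of the medium-light set. In high light 15 of the 69 passed (21.7%), of 129 probe sets (0.567%) that passed there, or 11.6% of them, and 11 passed at all 3 light levels. Of the 115 lower probe sets, 10 (8.70%) passed in medium light, of 114 (0.501%) there, and 14 (12.2%) in high light, of 317 (1.39%). Those were 8.77% and 4.42% of the medium-light and high-light sets, and 3 passed at all 3 levels. The difference was below 0 for 71 of the 115 in medium and 86 in high light, with medians of -0.12 and -0.27. It was above 0 for 48 and 47 of the 69, with medians of 0.70 and 0.36. Over all 15784 probe sets measured in low light the medians were 0.0 in medium and 0.005 in high light. The share of these on either side of 0 at those light levels was not counted, so the sign counts have no background.

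**Figure D5:**
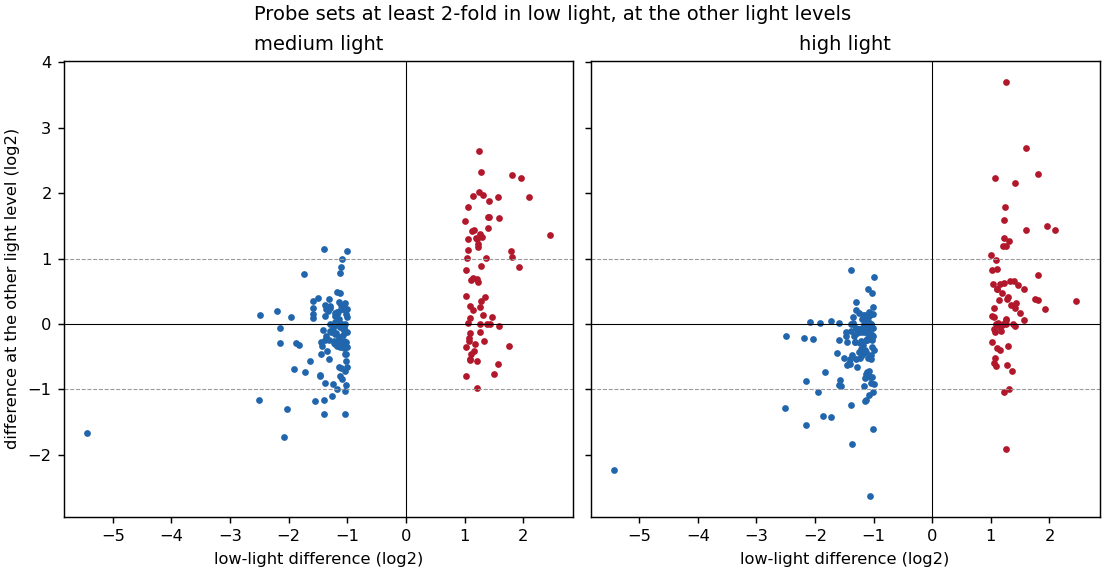
Log2 difference at medium light (left) and high light (right) against the low-light difference, for the 69 probe sets at least 2-fold higher (red) and the 115 at least 2-fold lower (blue) in low light, with dashed lines at 2-fold. Of the red points 31 lie above the upper dashed line in medium light, and of the blue points 10 lie below the lower one.

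Among the 115 lower probe sets, the low-light high-CO2 array had the lowest signal of the 6 for 82, the low-light ambient array the highest for 64, and both held for 38. Among the 69 higher ones, the high-CO2 array had the highest signal for 28 and the ambient array the lowest for 34. Both sets were chosen by the difference within this pair, so extremes on its arrays are partly set by that choice. No share over other probe sets was counted, and these counts do not show that a difference is particular to low light. In the 4 arrays outside the pair, 29 of the 69 higher probe sets (42%) had a mean log2 signal at least 0.5 above medium light in high light, against 7.07% of the 12116 probe sets bright enough to reach 2-fold in low light. Another 5 (7.25%) were lower by that size, against 5.45%. The 115 lower probe sets had 16 (13.9%) higher and 19 (16.5%) lower.

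Whether a CO2 difference was particular to low light was tested as the low-light difference minus the mean of those in medium and high light, with limma on all 6 arrays. The error of this fit comes from how far the medium-light and high-light CO2 differences depart from each other, moderated across probe sets. It does not come from replicate arrays, so the standard errors below do not measure replicate spread. The high-light difference rests on the array labelled high CO2 by its title alone. With 1 residual degree of freedom, 0 of 16148 probe sets (0%) passed an adjusted p of 0.05 (limma, Benjamini-Hochberg), and 293 had an unadjusted p under 0.05, fewer than the 807 that a share of 0.05 would give. Among probe sets with 1 gene and a value of at least 1 in size, BCAT4 had the smallest p on the lower side, with a value of -2.48 ± 0.27 (standard error). In order of p it was followed by AT5G43100 at -2.23 ± 0.32, PDC2 (a pyruvate decarboxylase) at -1.53 ± 0.24, GSTU20 at -1.02 ± 0.20, AT2G25450 at -1.09 ± 0.22 and AT1G42650 at -1.51 ± 0.31. PDC2 reached that value with a low-light difference of only -0.28, since it differed by 1.13 in medium and 1.35 in high light. On the higher side stood GRXC1 at 1.42 ± 0.34 and AT1G19600, AT3G06870, AT5G43822, AT5G41180 and AT2G15270, from 1.43 to 1.63. No difference could therefore be called particular to low light.

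Few cell type markers were matched to probe sets with 1 gene. RCA, of green mesophyll, had signals of 3608.0 or more on all 6 arrays, and the guard cell gene FMA and the vascular gene SWEET11 are given above. The trichome gene TRY had 15.5 and 26.0, the meristem gene CLV3 was under 20 on both low-light arrays, and no epidermis or flower marker was matched. Of the root markers, EXPA7 had 20.9 and 26.8, EXPA18 30.7 and 44.2, and PYK10 moved the other way. The ratio of 3′ to 5′ signal, a measure of RNA integrity, was 5.30 at ambient and 3.99 at high CO2 for actin, 1.21 and 1.22 for GAPDH, and 3.56 and 3.89 for ubiquitin. The 25S rRNA control had 840.4 and 1627.7, and the part of these control differences in the results was not tested. Fewer cells of a type and less RNA per cell cannot be told apart in these bulk samples.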

How the data were processed

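Total RNA was labelled with biotin and measured on 6 single-colour arrays, 1 per combination of light and CO2. The deposited values are linear intensity values (MAS5 signal), and MAS5 was run by the authors per the submitters' processing notes, no version being stated. From the values, each array had been scaled to a 2% trimmed mean of 100.01. Precision is limited by how few arrays there are.

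The 64 control probe sets were left out, signals under 20 were set to 20, and log2 differences were taken within each light level. The interaction was fitted with limma 3.58.1 under R 4.3.3 (light as a factor, CO2, and CO2 in low light, with a moderated variance that followed intensity) on probe sets with a signal of 20 or more on at least 2 arrays, and was tested on simulated data. Python 3.11.15 with pandas 2.3.3 and matplotlib 3.10.9 did the rest.

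Of 22746 probe sets, 13513 had 1 gene in the platform annotation, 503 several and 8730 none. The gene table of assembly TAIR10.1 held 13436 of the 13513, and gave a symbol other than a locus number to 1551 of these. It has no descriptions, so gene families were taken from symbols, and plastid genes from the chromosome entry. In 13 cases a list symbol that belongs to another locus was left out. No promoter table was used here, so motifs were not counted and no sequences are shown.

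Named genes were the 14 higher and 14 lower of largest size with both signals at 20 or more and the higher at 60 or more, 5 each way with 1 signal under 20, up to 4 per list, all stomatal genes, 6 each way from the interaction, and up to 2 each way without a name. Those from the interaction had the smallest p among probe sets with 1 gene and a value of at least 1 in size. All genes with a symbol and a size of 0.8 or more, CHIL and other genes outside the lists among them, and the families were added after their values were seen. Members and lists were chosen with earlier results of these data known.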

Additional observations from a re-analysis of the deposited data

How the results depend on the processing

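With 1 array per group, no replicate could be left out. High and ambient CO2 arrays were set against each other within each light level, and no other pairing was used. The counts at least 2-fold in low light depend on the floor: 225 higher and 313 lower with a floor of 10, 20 and 50 with a floor of 50, and 33 and 65 on log2(signal + 20). With both signals at 20 or more, 44 were higher. Equal medians gave 85 and 106, and quantile normalization 80 and 104. In medium light, alternatives chosen after seeing the data gave 553 higher and 293 lower at floor 10, 74 and 47 at floor 50, and 126 and 49 on log2(signal + 20). In high light they gave 337 and 603, then 48 and 192, and 74 higher on log2(signal + 20).

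The overlap of the higher probe sets with medium light was 55 at floor 10, 12 at floor 50, 17 with all signals at 20 or more and 18 on log2(signal + 20), and with high light 29, 6, 8 and 8. For the lower ones it was 20, 4 and, on log2(signal + 20), 4 in medium light, and 31, 5, 7 and 9 in high light.

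The interaction gave 217 calls with a floor of 50, of which 203 had exactly equal differences in medium and high light because their signals lay at the floor, and 196 without the filter. It gave 0 with a floor of 10, without a trend and with quantile normalization. Against medium light alone, 347 probe sets were lower by at least 1, against 162 with both light levels.

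Among list genes, 2 were at least 2-fold lower with a floor of 50, and 1 was higher with quantile normalization (CCS). Of 45 reported probe sets at least 2-fold in low light, 27 no longer were with a floor of 50, 22 on log2(signal + 20), 2 with quantile normalization (PYK10 and AT5G55450) and 1 with equal medians (PYK10), and none changed sign. Promoter motifs were not run.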
